A study of Homo sapiens with 4 samples.

Results

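The expression of 10 histone deacetylase genes, HDAC1 to HDAC9 and HDAC11, was examined in A2780s, an established human epithelial ovarian cancer (EOC) cell line derived from an ovarian adenocarcinoma. Their probes were taken by gene name from the non-control probes of all 4 arrays, which gave 23 of 41000 probes and 10 of 29123 gene names, and all 23 passed the filter on dim probes. HDAC9 was chosen by its high log2 ratio in GALNT3 KO cells against Ctrl, so its values in that comparison are given as a description with no test. The other genes are members because of their family. Each array carried RNA of 1 KO clone labelled with Cy5 and Ctrl RNA from mock-transfected A2780s cells labelled with Cy3, with 2 arrays per KO group, no dye swap by the labels, and all 4 arrays on 1 slide. GALNT3 encodes an enzyme that starts mucin-type O-glycosylation, and GALNT6 a related enzyme. CRISPR/Cas9 with a repair plasmid gave the GALNT3 KO clones, which were selected with puromycin before the cassette was excised with Cre. The GALNT3/T6 KO clones were GALNT3 KO clones that also received lentiviral shRNA against GALNT6, so GALNT6 was knocked down rather than deleted, and transduction cannot be told apart from that knockdown. By their labels, both KO groups share the GALNT3 edit.

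Histone deacetylases remove acetyl groups from lysines of histones and other proteins, which in chromatin goes with lower transcription. Of the class I enzymes, HDAC1, HDAC2 and HDAC3 are the catalytic subunits of large corepressor complexes in the nucleus. Class IIa enzymes have weak deacetylase activity of their own, bind MEF2 transcription factors, and leave the nucleus when kinases phosphorylate them and 14-3-3 proteins bind. Class IIb HDAC6 acts mainly in the cytoplasm, and HDAC11 is the sole class IV enzyme.

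The 6 HDAC9 probes are shown first because they did not move together. Their positions are on the plus strand of chromosome 7 in hg19, the build in the scanner files. For each 60-base probe the first 30 bases are printed, from 5′ to 3′ and in the order of the gene. Capitals mark a block of 12 bases shared by 2 overlapping probes.
A_23_P404162, chr7:18708002-18708061: ttccatctcataaatattcattttcttcaa
A_24_P206317, chr7:18801801-18801860: agcctggaggaaatacagcttgttcattct
A_23_P332459, chr7:18875187-18875246: ctggcagtggagccCCAAATGAGGTTcggt
A_23_P215577, chr7:18875201-18875573: CCAAATGAGGTTggaacaggccttggagaa
A_32_P841049, chr7:19036657-19036716: ttcattccttcctttagaaaaactgaagat
A_32_P118348, chr7:19041721-19041780: ctgagaaaaatacatgttgccaaacttttc
The pair with capitals starts in the same stretch and then parts, since A_23_P215577 goes on in a block further downstream while A_23_P332459 is contiguous in the genome. The array annotation names HDAC9 transcript variant 3 for A_23_P404162, variant 1 for A_24_P206317 and A_23_P215577, and variant 4 for A_32_P841049. It lists further transcripts for each of these 4 probes. A_23_P332459 and A_32_P118348 are listed with Ensembl transcripts, and the latter also with a long noncoding RNA named lnc-HDAC9-1. Exon and UTR positions in hg19 were not used here.

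Per array and channel, 86.9% to 93.8% of the spots other than controls carried the scanner software's mark for a signal well above background, and none was saturated. Values below are log2 ratios of KO over Ctrl unless a channel's log2 signal is named, and the median gap between the 2 arrays of a group over all probes was 0.14 for GALNT3 KO and 0.18 for GALNT3/T6 KO. The GALNT3 probe, at chr2:166604416-166604475, lacked the well-above-background mark in both channels of the GALNT3 KO arrays. Both arrays labelled GALNT3/T6 KO read it higher than Ctrl, at 4.80 and 5.08, which goes against the label. Values of this group are therefore given below as those under the GALNT3/T6 KO label. GALNT6 read -0.47 and -0.38 on the GALNT3 KO arrays and -0.66 and -0.69 on those labelled GALNT3/T6 KO. All 9 epithelial and ovarian line markers were well above background in both channels of every array, but so were 6 of 7 leukocyte and endothelial markers, with PECAM1 well above background on no array, so the mark does not identify the cell type. Under the GALNT3/T6 KO label, 6 of the 9 epithelial and ovarian line markers were called higher, with log2 ratios over the list from 0.06 to 5.68, and 3 of 5 mesenchymal markers were higher and 2 lower, where 24.9% of all genes were called higher and 23.2% lower. In GALNT3 KO, where 4.86% of all genes were called higher, 3 of the 5 mesenchymal markers were called higher, CDH2 at 2.54, VIM at 1.12 and COL1A2 at 0.62. COL1A1 at -0.09 and the 9 epithelial and ovarian line markers, from -0.22 to 0.59, were not called there. FN1 at 0.10 was not called either, by a probe without the well-above-background mark in both channels of the GALNT3 KO arrays. That FN1 value therefore does not show unchanged RNA. Counting any FN1 probe, the mark was present in both channels of those arrays, but that ratio is not given here. The part of these markers in the results below, the HDAC9 values included, was not tested.

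In GALNT3 KO cells the rise of HDAC9 was read by the 2 probes at its 3′ end. HDAC9 is a class IIa enzyme that represses MEF2 target genes, and some of its shorter forms lack the deacetylase domain. At A_32_P118348, the brightest HDAC9 probe, the GALNT3 KO arrays gave 5.03 and 4.32 as log2 ratios, against 0.01 and 0.01 under the GALNT3/T6 KO label. Both GALNT3 KO arrays stood above both others, which rests on the values that chose the gene. The GALNT3 KO mean was 4.68 ± 0.51 (SD, n = 2), or 25.5-fold. At A_32_P841049 the log2 ratio was 4.37 and 3.17 in GALNT3 KO, and -0.21 and -0.42 under the GALNT3/T6 KO label. The GALNT3 KO mean was 3.77 ± 0.85 (SD, n = 2), or 13.6-fold. That the groups did not overlap here rests on the same choice. In RNA of whole cultures, a rise in every cell and a rise in a share of the cells cannot be told apart. By mean log2 ratio in GALNT3 KO these were the probes ranked 2 and 4 of 38247 tested, as the choice of the gene would have it.

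The 4 upstream HDAC9 probes read near 0 in GALNT3 KO with the normalization used here. A_23_P404162 gave 0.03 and 0.19, A_24_P206317 gave 0.05 and -0.04, A_23_P332459 gave 0.13 and 0.18, and A_23_P215577 gave -0.02 and 0.14. These 8 values lay between -0.04 and 0.19. They depended on the normalization. With Agilent's own log ratio the means of the 4 probes were higher, at 0.47, 0.39, 0.50 and 0.51 in that order, beside 4.55 at A_32_P118348. The high and the near-zero probes are separated by 161 kb of the gene that holds no HDAC9 probe of this array, so the place where the values change was not resolved. A_24_P206317 lacked the well-above-background mark in both channels of GALNT3 KO replicate 1. Over its 6 probes HDAC9 spanned 4.67 on the log2 ratio scale in GALNT3 KO, a span that rests on the values that chose the gene.

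**Figure D1:**
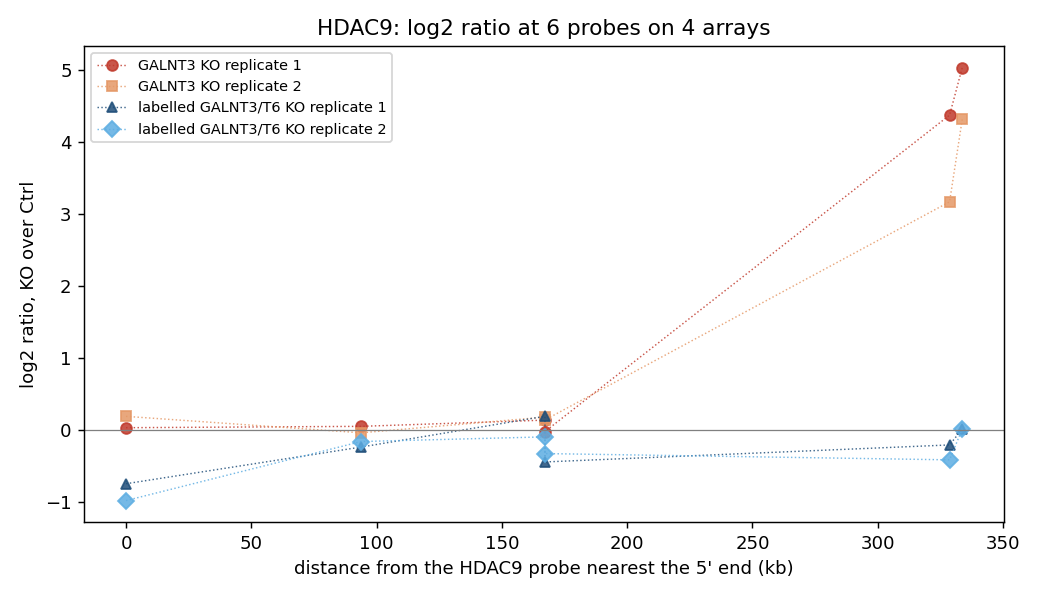
Log2 ratio of KO over Ctrl (vertical axis) at the 6 HDAC9 probes by their distance in kb from the probe nearest the 5′ end (horizontal axis), with 1 symbol per array and dotted lines that join the probes of an array. The 2 probes at the far right lie between 3.17 and 5.03 on the GALNT3 KO arrays, and the other values lie between -0.98 and 0.19.

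The KO and Ctrl channels of the HDAC9 probes are given apart. At A_32_P118348 the KO channel had a log2 signal of 15.92 and 16.12 on the GALNT3 KO arrays, and 8.76 and 8.80 under the GALNT3/T6 KO label. The Ctrl channel of the same probe had a log2 signal of 10.88 and 11.81 on the GALNT3 KO arrays, and 8.74 and 8.79 on the others, although the labels name the Ctrl RNA alike on all 4 arrays. The Ctrl signal was thus brighter where the KO signal was bright, by 2.58 on the log2 scale, and the KO signal by 7.24, or 151-fold. At A_32_P841049 the Ctrl channel had a log2 signal of 9.77 and 11.15 on the GALNT3 KO arrays, and 8.47 and 8.30 on the others. The extra Ctrl signal came to 3.45% of the linear KO signal at A_32_P118348 and to 6.42% at A_32_P841049. Over all probes, 3 were at least 16-fold higher on both GALNT3 KO arrays, A_32_P118348 among them, and in all 3 the Ctrl channel was brighter there, by 1.80% to 3.45% of the KO signal. The part of the Ctrl channel in the HDAC9 ratio was not tested.

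**Figure D2:**
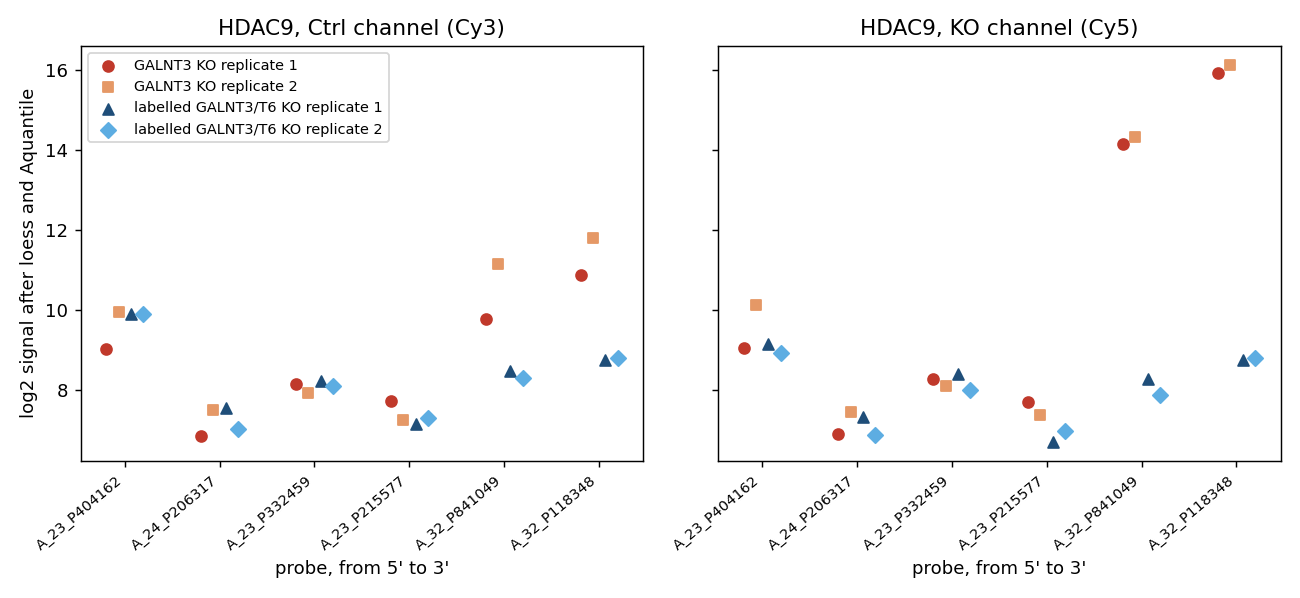
Log2 signal after normalization (vertical axis) of the 6 HDAC9 probes, from 5′ to 3′ (horizontal axis), in the Ctrl channel (left panel) and the KO channel (right panel), with 1 symbol per array; signals compare arrays within a probe, not probes with each other. At the 2 rightmost probes the GALNT3 KO arrays stand above the others in both panels, from 14.14 to 16.12 in the KO channel and from 9.77 to 11.81 in the Ctrl channel.

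The arrays under the GALNT3/T6 KO label, which played no part in the choice of HDAC9 but share its Ctrl RNA, were tested against Ctrl. The model takes 1 spread from all 4 arrays, so the GALNT3 KO values that chose the gene enter the standard errors of this test. Of the 6 HDAC9 probes, 2 were called lower and 4 were not called at an adjusted p of at most 0.05, where 48.9% of all tested probes were called in this comparison. A_23_P404162, the probe nearest the 5′ end, read -0.75 and -0.98 there, below both GALNT3 KO arrays. Its mean log2 ratio was -0.87 (standard error 0.10, limma adjusted p = 0.00281), and adjusted p stayed between 0.000246 and 0.0225 over the alternatives. A_23_P215577 read -0.45 and -0.33, again below both GALNT3 KO arrays, with its KO channel not well above background on replicate 1. Its mean was -0.39 (standard error 0.09, limma adjusted p = 0.0233). That call was lost with median centring (limma adjusted p = 0.0769), arrays scaled to a common spread (0.0545) and a block for the replicate number (0.0524). It was also lost with the spread from this group's own arrays (limma adjusted p = 0.0666), which is what leaving out either GALNT3 KO array comes to. With that spread the calls over all probes fell from 18703 to 12407. Without replicate 1 of this group the value was -0.33 and the call was lost too.

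The other 4 HDAC9 probes were not called under the GALNT3/T6 KO label. A_24_P206317 read -0.24 and -0.16 (limma adjusted p = 0.106), and A_23_P332459 read 0.19 and -0.10 (limma adjusted p = 0.737). At the 3′ end, A_32_P841049 had a mean of -0.31 (standard error 0.29, limma adjusted p = 0.406) and A_32_P118348 a mean of 0.01 (standard error 0.18, limma adjusted p = 0.962). The SD of the 2 arrays at A_32_P841049 was 0.15, against 0.85 in GALNT3 KO, so the missing call there is not independent of the values that chose the gene. From this group's own arrays the standard error at A_32_P118348 was 0.09 (limma adjusted p = 0.927). The sign at A_32_P118348 turned with Agilent's own log ratio, to -0.34 (limma adjusted p = 0.301). Over the alternatives limma adjusted p ranged from 0.0671, which came from the mean of all HDAC9 probes at -0.29, to 0.989. Between the groups the mean log2 ratio, arrays labelled GALNT3/T6 KO minus GALNT3 KO, was -4.66 at A_32_P118348 and -4.08 at A_32_P841049, which is given without a test because the GALNT3 KO values chose the gene.

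The genes around HDAC9 did not share its high 3′ values in GALNT3 KO. Within 2 Mb of the HDAC9 probes, 31 probes lay on the array and 27 of them, under 18 names, were tested. Their log2 ratios on single GALNT3 KO arrays ranged from -0.62 to 0.72. The nearest gene downstream was TWIST1, a transcription factor of the mesenchymal program, whose nearer probe lay 114 kb from the last HDAC9 probe and read -0.45 and -0.26 in GALNT3 KO. Under the GALNT3/T6 KO label the same probe read -2.11 and -2.06, below both GALNT3 KO arrays (mean -2.09, standard error 0.09, limma adjusted p = 0.000189). In that comparison 9 of the 27 probes were called higher and 7 lower, or 59.3%, against 48.9% of all probes. AHR, the aryl hydrocarbon receptor, read 3.07 and 3.20 on those arrays, and -0.04 and -0.04 in GALNT3 KO. PRPS1L1, a gene of the phosphoribosyl pyrophosphate synthetase family, read 1.80 and 1.66 there, and -0.17 and 0.08 in GALNT3 KO. ITGB8, an integrin subunit, was read by 4 tested probes that differed, with means from 0.21 to 4.11 under the GALNT3/T6 KO label.

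The remaining tested neighbours had smaller or single-probe values. LOC101927811 had a mean of 2.99 under the GALNT3/T6 KO label (limma adjusted p = 0.000231), and BZW2 a mean of -0.91 (limma adjusted p = 0.00602). Both TWISTNB probes were lower, at -1.10 and -0.56, and both TWIST1 probes at -2.09 and -2.13. TSPAN13 at 0.63, AW731784 at 0.51, 1 of 3 tested MACC1 probes at 0.61 and AK096065 at -0.38 also passed the threshold. The SNX13 probes disagreed, at -0.78, 0.63 and -0.11. AGR2, AGR3, FERD3L, TMEM196, LOC100506098 and ENST00000429983 were not called, with means from -0.11 to 0.23.

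**Figure D3:**
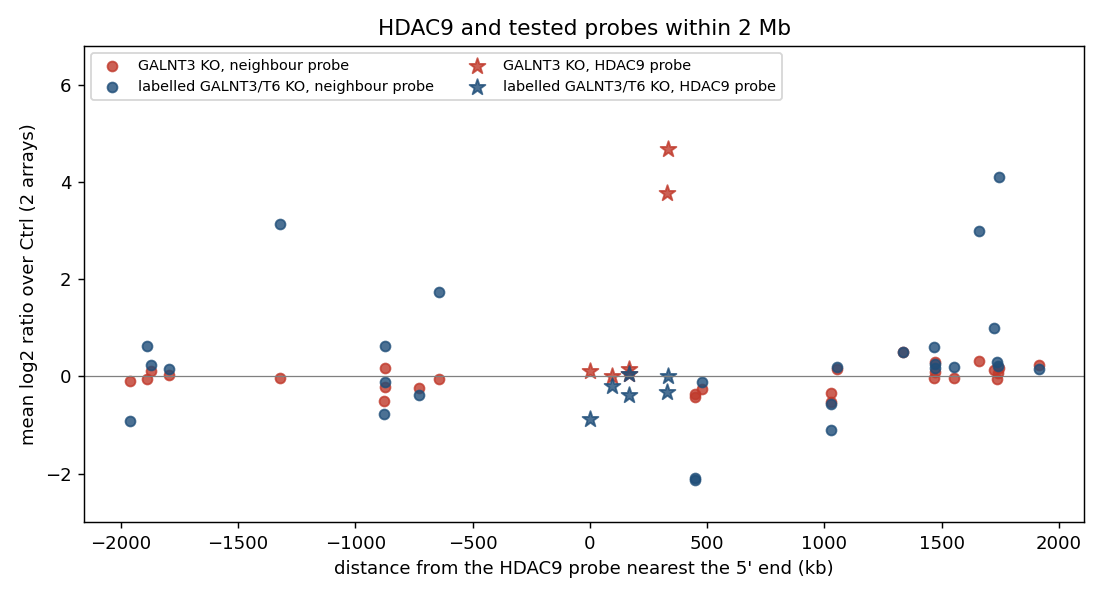
Mean log2 ratio over Ctrl of 2 arrays (vertical axis) for HDAC9 probes (stars) and the 27 other tested probes within 2 Mb (circles), by distance in kb from the HDAC9 probe nearest the 5′ end (horizontal axis). In GALNT3 KO the circles lie between -0.53 and 0.50, while 2 stars lie at 3.77 and 4.68.

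By the distance of log2 ratios over the 4 arrays, the genes nearest to the profile of A_32_P118348 were TMPRSS15 (distance 0.80), RAB3C (1.40), THSD7A (2.29), CCDC102B (2.82) and HOXD10 (2.85), each by its brightest probe. TMPRSS15, the intestinal protease enteropeptidase, read 5.39 and 4.49 in GALNT3 KO and -0.33 and -0.60 under the GALNT3/T6 KO label. RAB3C, a small GTPase of regulated secretion, read 3.88 and 3.52 in GALNT3 KO and 0.08 and 0.01 on the others. This likeness is a description over 4 values per gene, in genes ranked by it.

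Across the family, a gene was called by its brightest probe. Under the GALNT3/T6 KO label, 2 of 10 genes were called higher and 4 lower against Ctrl, that is 60%, where 48.1% of all 27223 genes tested were called, 24.9% higher and 23.2% lower. The median log2 ratio of the 10 genes was -0.09 and that of all genes was 0.03. HDAC9 counts here as not called, by A_32_P118348 at 0.01, its brightest probe through the GALNT3 KO values that chose the gene. On the arrays under the GALNT3/T6 KO label A_23_P404162 was brighter in both channels, and it was called lower at -0.87. The place of HDAC9 in this count and median is thus not independent of its choice. Class I HDAC1, HDAC2 and HDAC3 and class IIb HDAC6 were lower, and class IIa HDAC4 and HDAC5 were higher, HDAC4 by a probe that another HDAC4 probe contradicted. In GALNT3 KO, HDAC4 passed the threshold as higher and HDAC6 as lower, and with HDAC9, whose place the choice of the gene fixed, the count was 3 of 10, beside 11.5% of all genes, with 4.86% higher and 6.63% lower. Nothing is read from that count. It changed when 1 array was left out, but so did the calls over all probes, so that change is not particular to these genes. Counting probes, 3 of the 23 were called higher and 8 lower under the GALNT3/T6 KO label, beside 24.1% and 24.8% of all probes. The 2 arrays of a group agreed in sign for all 10 genes in GALNT3 KO, HDAC9 by its choice, and for 7 of 10 under the GALNT3/T6 KO label. The share of all genes that agree was not counted, so nothing particular to the family is read from this.

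**Figure D4:**
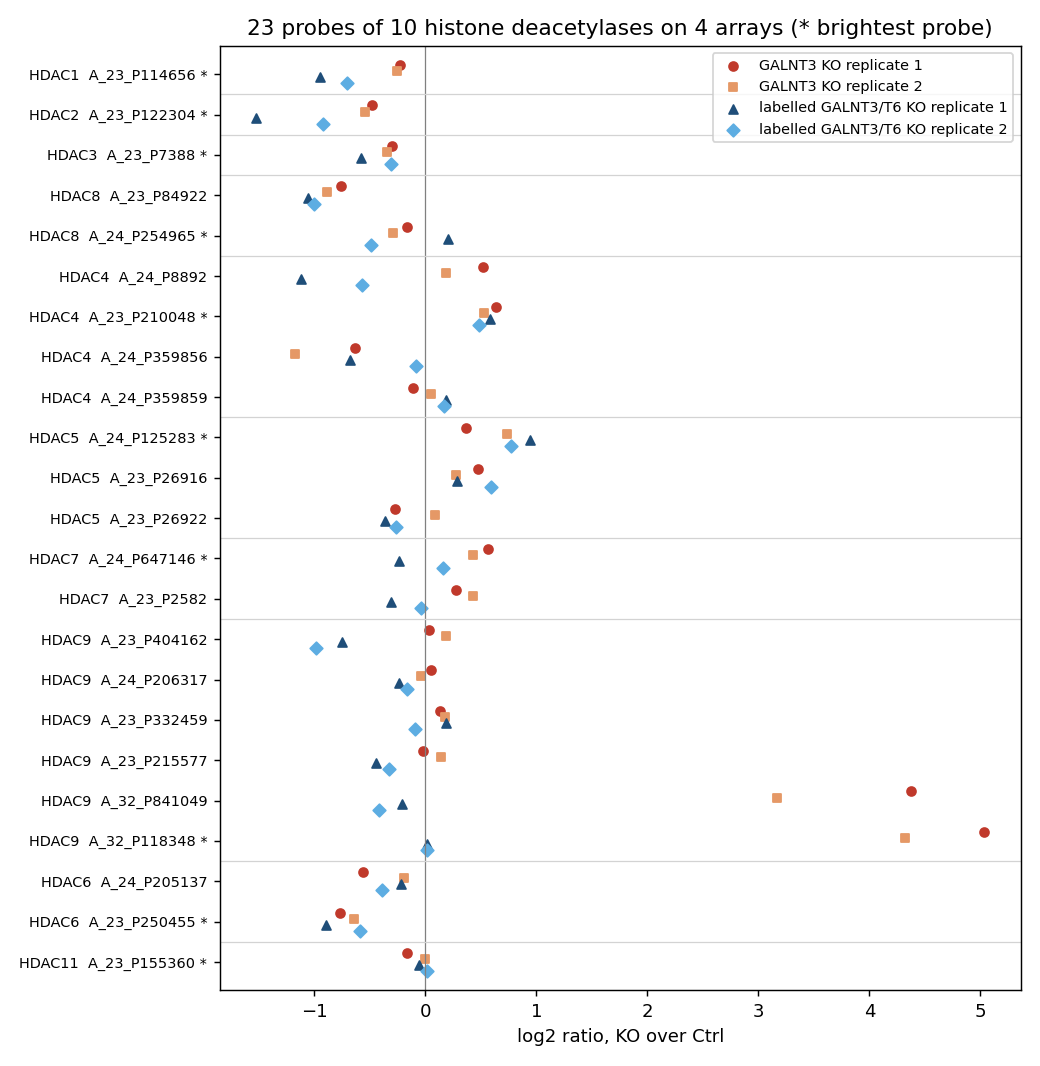
Log2 ratio of KO over Ctrl (horizontal axis) for the 23 probes of the 10 genes (vertical axis, by class, brightest probe starred), with 1 symbol per array. HDAC1 and HDAC2 lie left of 0 on all 4 arrays, and the only values above 0.94 are those of 2 HDAC9 probes on the GALNT3 KO arrays, at 3.17 to 5.03.

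HDAC1 and HDAC2, the paired catalytic subunits of the NuRD, SIN3 and CoREST complexes, were lower under the GALNT3/T6 KO label. HDAC1, read by 10 spots of a probe at chr1:32799037-32799096, gave -0.23 and -0.25 in GALNT3 KO and -0.95 and -0.71 under the GALNT3/T6 KO label. The groups did not overlap. Its mean against Ctrl under the GALNT3/T6 KO label was -0.83 (standard error 0.10, limma adjusted p = 0.00273), or 0.562-fold, and the call held in every alternative. HDAC2, read at chr6:114262195-114262873, gave -0.48 and -0.54 in GALNT3 KO and -1.52 and -0.92 under the GALNT3/T6 KO label. Here too the groups did not overlap, but replicate 2 of that label lay nearer to the GALNT3 KO arrays than to its own replicate 1. Its mean under the GALNT3/T6 KO label was -1.22 (standard error 0.16, limma adjusted p = 0.00377), or 0.429-fold.

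The other class I enzymes gave smaller or divided values. HDAC3, the deacetylase of the NCoR complexes, was read at chr5:141005328-141005635 and gave -0.30 and -0.34 in GALNT3 KO and -0.58 and -0.31 under the GALNT3/T6 KO label. The groups overlapped. Its mean under the GALNT3/T6 KO label was -0.45 (standard error 0.10, limma adjusted p = 0.0205). The call was lost without that group's replicate 1 (limma adjusted p = 0.0856) and without GALNT3 KO replicate 1 or replicate 2 (limma adjusted p = 0.0745 each), in a range from 0.00524 to 0.0856. HDAC8, an X-linked enzyme known to deacetylate cohesin, was read by 2 probes that gave different answers. The probe across chrX:71571676-71681900 gave -0.76 and -0.89 in GALNT3 KO and -1.06 and -1.01 under the GALNT3/T6 KO label, and its mean there was -1.03 (standard error 0.09, limma adjusted p = 0.00101). The brighter probe, across chrX:71787823-71788605, gave -0.17 and -0.29 in GALNT3 KO and 0.21 and -0.49 on the others. Its mean under the GALNT3/T6 KO label was -0.14 (standard error 0.18, limma adjusted p = 0.536). Without that group's replicate 1 it was -0.49. Averaged over the HDAC8 probes the value was -0.59 (limma adjusted p = 0.0112).

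HDAC4, a class IIa enzyme known from chondrocytes, muscle and neurons, had 4 probes on chromosome 2 that disagreed. The brightest was A_23_P210048. It gave 0.63 and 0.53 in GALNT3 KO and 0.58 and 0.48 under the GALNT3/T6 KO label, so the groups overlapped. Its mean under the GALNT3/T6 KO label was 0.53 (standard error 0.09, limma adjusted p = 0.00737). A_24_P8892 gave 0.52 and 0.19 in GALNT3 KO and -1.12 and -0.57 on the others. There the groups did not overlap and the mean under the GALNT3/T6 KO label was -0.85 (standard error 0.17, limma adjusted p = 0.0133), the opposite sign.

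The remaining HDAC4 probes were not called under the GALNT3/T6 KO label. A_24_P359856 gave -0.64 and -1.18 in GALNT3 KO and -0.68 and -0.09 under the GALNT3/T6 KO label (mean -0.38, limma adjusted p = 0.172), and was called lower without that group's replicate 2, at -0.68 (limma adjusted p = 0.0114). A_24_P359859 gave -0.12 and 0.05 in GALNT3 KO and 0.18 and 0.17 on the others (mean 0.18, limma adjusted p = 0.159). The 4 means under the GALNT3/T6 KO label spanned 1.38 on the log2 ratio scale, against a median span of 0.53 over 7912 genes with at least 2 tested probes. Averaged over its probes, HDAC4 came to -0.13 (limma adjusted p = 0.343), so its direction depended on the probe. The call at A_23_P210048 was also lost with Agilent's log ratio (limma adjusted p = 0.0567) and with median centring (limma adjusted p = 0.101), in a range from 0.00579 to 0.343. That at A_24_P8892 was lost without GALNT3 KO replicate 1 or replicate 2 (limma adjusted p = 0.0505 each), in a range from 0.000189 to 0.0505.

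HDAC5, a class IIa enzyme that answers to calcium-dependent kinases, was higher by its brightest probe under the GALNT3/T6 KO label. That probe, at chr17:42154164-42154223, gave 0.37 and 0.74 in GALNT3 KO and 0.94 and 0.77 under the GALNT3/T6 KO label. The groups did not overlap, though their nearest arrays were close, and the mean under the GALNT3/T6 KO label was 0.85 (standard error 0.12, limma adjusted p = 0.00508), or 1.81-fold. A_23_P26916 gave 0.47 and 0.28 in GALNT3 KO and 0.29 and 0.59 on the others, with a mean of 0.44 there (standard error 0.12, limma adjusted p = 0.0318). Its call was lost without that group's replicate 2 (limma adjusted p = 0.125), without GALNT3 KO replicate 1 or replicate 2 (limma adjusted p = 0.0851 each) and with Agilent's log ratio (limma adjusted p = 0.818), in a range from 0.00665 to 0.818. A_23_P26922 gave -0.28 and 0.08 in GALNT3 KO and -0.36 and -0.26 on the others (mean -0.31, limma adjusted p = 0.0801).

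HDAC7, a class IIa enzyme known from endothelium and thymocytes, was not called under the GALNT3/T6 KO label. Its brightest probe, at chr12:48176698-48176757, gave 0.56 and 0.43 in GALNT3 KO and -0.24 and 0.16 under the GALNT3/T6 KO label. The 2 arrays labelled GALNT3/T6 KO differed in sign, both below GALNT3 KO, with a mean of -0.04 (standard error 0.13, limma adjusted p = 0.813). The adjacent probe A_23_P2582 gave 0.28 and 0.43 in GALNT3 KO and -0.31 and -0.04 on the others (mean -0.17, limma adjusted p = 0.235). With Agilent's log ratio both probes were called lower under the GALNT3/T6 KO label, at -0.49 (limma adjusted p = 0.033, range 0.0328 to 0.885) and -0.51 (limma adjusted p = 0.016, range 0.016 to 0.854).

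HDAC6, the X-linked deacetylase of tubulin, was lower by its brightest probe at chrX:48683060-48683119. It gave -0.77 and -0.64 in GALNT3 KO and -0.90 and -0.59 under the GALNT3/T6 KO label, with overlapping groups. Its mean under the GALNT3/T6 KO label was -0.75 (standard error 0.11, limma adjusted p = 0.00548), or 0.596-fold, and the call held in every alternative. The dimmer probe at chrX:48665102-48665161 gave -0.56 and -0.19 in GALNT3 KO and -0.22 and -0.39 on the others (mean -0.31, limma adjusted p = 0.0967), and was called with Agilent's log ratio at -0.72 (limma adjusted p = 0.0174, range 0.0174 to 0.281). HDAC11, which also removes fatty acyl groups, was read at chr3:13546074-13546133. It gave -0.17 and -0.003 in GALNT3 KO and -0.06 and 0.02 on the others, with a mean of -0.02 under the GALNT3/T6 KO label (standard error 0.09, limma adjusted p = 0.854).

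The KO groups were then compared with each other, leaving out HDAC9. By the brightest probe, 1 of 9 genes was called, where 24.3% of all genes were. With an unadjusted p of at most 0.05 and at least 1.5-fold in its place, 2 of 9 passed, where 27% of all genes did. HDAC1 was lower under the GALNT3/T6 KO label than in GALNT3 KO, by -0.59 (standard error 0.14, limma adjusted p = 0.038). The call was lost without GALNT3 KO replicate 1 (limma adjusted p = 0.222), without GALNT3 KO replicate 2 (limma adjusted p = 0.202) and without replicate 1 of the other group (limma adjusted p = 0.0532), in a range from 0.00707 to 0.222. For HDAC2 the difference was -0.71 (standard error 0.23, limma adjusted p = 0.086). Without replicate 2 of the arrays labelled GALNT3/T6 KO it passed, at -1.01 (limma adjusted p = 0.000911, range 0.000911 to 0.361). For HDAC7 it was -0.53 (standard error 0.18, limma adjusted p = 0.0967), and without that replicate -0.73 (limma adjusted p = 0.00702, range 0.00702 to 0.403). Over all 17 probes of these 9 genes 2 were called, beside 25.3% of all probes tested. Besides that of HDAC1 it was A_24_P8892 of HDAC4, at -1.20 (standard error 0.24, limma adjusted p = 0.0228). That call was lost without GALNT3 KO replicate 1 (limma adjusted p = 0.184) and without GALNT3 KO replicate 2 (limma adjusted p = 0.12), in a range from 0.000186 to 0.184.

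The proteins that carry, oppose or read deacetylation were taken as 6 lists of 119 tested genes. Under the GALNT3/T6 KO label, 21 of the 119 were called higher and 55 lower against Ctrl. Of all genes 48.1% were called, 24.9% higher and 23.2% lower. Among 23 NuRD and SIN3 subunits, which hold HDAC1 and HDAC2, 5 were higher and 9 lower, with a median log2 ratio of -0.16. Among 19 CoREST, NCoR and MiDAC subunits 2 were higher and 10 lower, with a median of -0.45. Of 28 MEF2 factors, 14-3-3 proteins, kinases and other partners that work with class IIa enzymes, such as ANKRA2, RFXANK and CABIN1, 5 were higher and 12 lower, with a median of -0.28. Of 18 histone acetyltransferases 1 was higher and 10 were lower, with a median of -0.71. Of 24 acetyl-lysine readers 5 were higher and 12 lower, with a median of -0.36, and of 7 sirtuins 3 were higher and 2 lower, with a median of 0.33. All genes together had a median of 0.03.

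**Figure D5:**
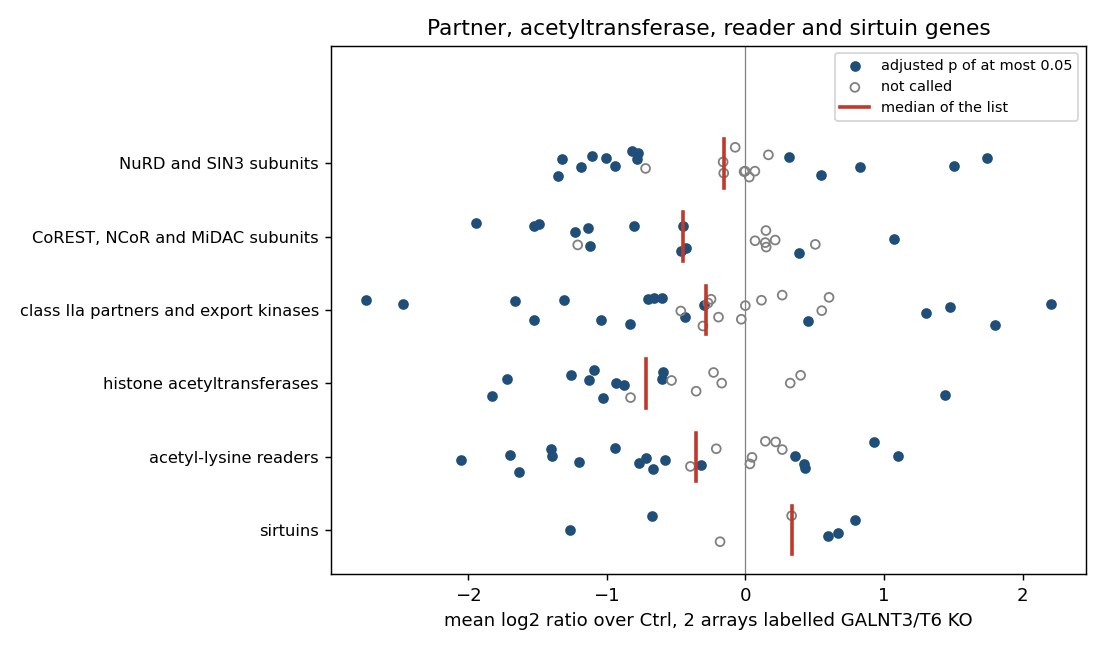
Mean log2 ratio over Ctrl of the 2 arrays under the GALNT3/T6 KO label (horizontal axis) for the genes of 6 lists (vertical axis, spread at random within a list), with called genes filled, other genes hollow and the median of a list as a bar. The medians lie between -0.71 for histone acetyltransferases and 0.33 for sirtuins.

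Within the lists, the ends under the GALNT3/T6 KO label were as follows. Among NuRD and SIN3 subunits, the methyl-CpG binder MBD2 (1.74) and the remodeler CHD3 (1.51) were highest and SUDS3 (-1.32) and MTA1 (-1.35) lowest of those called. MTA1 differed between its 2 arrays, at -2.05 and -0.65. In the CoREST, NCoR and MiDAC list these were the MiDAC subunit DNTTIP1 (1.08) and the NCoR subunit TBL1XR1 (0.39), and the CoREST-linked HMG20B (-1.53) and ZMYM2 (-1.94). In the class IIa list these were the 14-3-3 protein YWHAB (2.21) and the kinase CAMK4 (1.80), and the 14-3-3 protein YWHAG (-2.47) and the protein kinase D member PRKD3 (-2.74). YWHAB read 1.78 and 2.63 and YWHAG read -2.70 and -2.24 on those arrays, so members of the same protein family lay at opposite ends.

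For acetyltransferases, KAT2B (1.44), known as PCAF, was called higher and KAT6A (-1.72) and TAF1 (-1.83) were lowest. KAT2B read -0.78 and -0.76 in GALNT3 KO against 1.72 and 1.16 under the GALNT3/T6 KO label. Among readers, YEATS4 (1.10) and MLLT3 (0.93), which hold YEATS domains, were highest, and the bromodomain proteins BPTF (-1.70) and BRD1 (-2.05) lowest. The NAD-dependent sirtuins SIRT7 (0.79) and SIRT5 (0.67) were highest, and SIRT4 (-0.67) and SIRT1 (-1.26) lowest. SIRT1 read -0.89 and -1.18 in GALNT3 KO and -1.43 and -1.10 under the GALNT3/T6 KO label. In GALNT3 KO against Ctrl, 4 of the 119 genes were called higher and 17 lower, with 11.5% of all genes called, 4.86% higher and 6.63% lower. These counts changed when 1 array was left out, as did the calls over all probes. The groups differed at 38 of the 119, with 13 higher and 25 lower under the GALNT3/T6 KO label, and 24.3% of all genes called. That count also changed when 1 array was left out, and again so did the calls over all probes.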

How the data were processed

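Agilent 2-colour arrays measured RNA of 2 clones per KO group beside Ctrl RNA. The authors extracted the spot intensities with Feature Extraction (10.7.3.1 per the file headers); the deposited log10 ratios of the scanner files and the value table, which held the same ratios rounded, served as alternatives. Dye directions follow the labels, while the study's methods mention reversed colours without naming arrays. Probe coordinates are hg19. Background was corrected by normexp (offset 50) and dyes by loess in limma 3.58.1 (R 4.3.3), spots of a probe were averaged, and log2 ratios of KO over Ctrl were formed from the deposited intensities. Flagged and control spots were left out. A probe was tested where both arrays of a group marked it well above background, in either channel (38247 probes), by 1 limma model with a mean per group and Benjamini-Hochberg adjustment over all of them. Single-channel signals were taken after loess and Aquantile. The replicates are clones, and the spread of the Ctrl RNA is left out of the test against Ctrl. The number of arrays limits the precision. The limma model and the adjustment were tested on simulated log2 ratios, and the steps before them were not. The members, lists and alternatives were chosen with earlier results of these data known. Every probe of the 10 genes is given, with the 2 highest and 2 lowest called genes of each list under the GALNT3/T6 KO label, every gene with a tested probe within 2 Mb of HDAC9, and the 5 nearest profiles. All deposited columns of values were assigned to a sample.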

Additional observations from a re-analysis of the deposited data

Results flagged for a closer look

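The log2 ratio of HDAC1 differed between the KO groups. It was lower under the GALNT3/T6 KO label than in GALNT3 KO by -0.59 (limma adjusted p = 0.038), with -0.95 and -0.71 against -0.23 and -0.25, and it lost the call without GALNT3 KO replicate 1 (limma adjusted p = 0.222), GALNT3 KO replicate 2 (limma adjusted p = 0.202) or replicate 1 of the other group (limma adjusted p = 0.0532).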

How the results depend on the processing

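Of the 10 genes, between 4 and 6 were called under the GALNT3/T6 KO label in every alternative, and of the 119 list genes between 56 and 87. Where the brightest probe stood for a gene, HDAC9 entered by a probe that the values that chose it made brightest. In GALNT3 KO, against 3 of 10 genes (HDAC9, which was chosen there, included) and 21 of 119 list genes, Agilent's log ratio gave 1 and 1, the deposited values gave 1 and 1, arrays scaled to a common spread 7 and 53, and the spread from the group's own arrays 7 and 59. Over all 38247 probes, the calls in GALNT3 KO went from 4395 to 825, 822, 12410 and 13704 in these settings, so the shifts are not particular to these genes. Between the groups, against 1 of 9 genes, Agilent's log ratio gave 2, the deposited values gave 2, and an unadjusted p with at least 1.5-fold also 2. Median centring gave 0 by limma, also at an unadjusted p, and scaling the arrays gave 0 (2 at an unadjusted p), while list genes called fell from 38 to 23 with median centring. Leaving out 1 array gave 0 to 7 genes in GALNT3 KO (3 and 4 at an unadjusted p where limma called 0), 0 to 59 list genes there, 0 to 3 genes between the groups (0 to 2 at an unadjusted p where limma called 0), and 3 to 64 list genes. A group left with 1 array was assumed to vary like the other. Over all probes, 38% of those called in GALNT3 KO were higher, and 22.3% with median centring. The mean of HDAC9 in GALNT3 KO moved to 5.99 with scaled arrays and to 1.46 over all its probes. Its 4 upstream probes moved to means from 0.39 to 0.51 in GALNT3 KO with Agilent's log ratio. HDAC4 by its brightest probe reversed to -0.13 when its probes were averaged (limma adjusted p = 0.343).

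The replicate numbers did not pair the arrays (r = -0.22 between the deviations of the same numbers). With the replicate block, limma called 5 of 10 genes and 65 list genes under the GALNT3/T6 KO label, 1 gene and 0 list genes in GALNT3 KO (42 at an unadjusted p), and 0 genes between the groups (2 at an unadjusted p). Over all 38247 probes it called 146 in GALNT3 KO. The crossed pairing, added after the data were seen, called 6 genes under the GALNT3/T6 KO label, 5 in GALNT3 KO and 1 between the groups. The cause of these shifts was not tested. Signals near background limit A_24_P206317 and A_23_P215577 of HDAC9.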
